A study of Mus musculus with 3 samples.

Results

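The clustered protocadherin locus of the mouse lies on chromosome 18, from the low end of Pcdha1 at position 36930285 to the high end of Pcdhgc5 at 37841873 (mm10). The span of 911.6 kb was covered by 4559 of the 12313737 bins of 200 bp for which DNA methylation signal was measured, 0.0370% of all. It holds 58 protocadherin genes in 3 clusters. The alpha cluster has 14 genes, of which Pcdhac1 and Pcdhac2 are of the C type. The beta cluster has 22 genes. The gamma cluster has 22 genes, made up of 12 of the A type, 7 of the B type and 3 of the C type. All bins and protocadherin genes of the span were taken by position, but the members and lists were chosen with earlier results of these data known.

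Clustered protocadherins are cell surface adhesion proteins of the cadherin superfamily. In neurons each cell uses a small, largely random set of them, and their homophilic binding lets a neuron tell its own branches from those of others. In the alpha and gamma clusters every variable first exon has its own promoter and is spliced to constant exons that the whole cluster shares, while each beta gene is a single exon. In alternate alpha, beta and gamma genes, DNA methylation of the promoter goes with silence, and CTCF and cohesin join active promoters to distant enhancers. In human colorectal and other tumours, long stretches of these clusters have been described as methylated.

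The assay was MBD-seq. Sheared DNA is passed over beads that carry a protein domain with affinity for methylated CpG sites, and the bound fragments are sequenced, so a value counts captured reads and not the share of methylated molecules. The DNA came from organoids, which are epithelial structures grown in gel, started from the proximal colon of male mice about 40 days old. These mice carried 1 Cre-activable Braf V600E allele (Braf+/LSL), an oncogenic kinase mutation, and 3 libraries were made. "Braf Base" is DNA from organoids labelled BRAF3, in which lentiviral Cre had activated the allele, grown out under selection in Base medium, from which the stem-cell niche factors are missing. "Braf full" is the same kind of organoid kept in full medium, which holds Wnt3a, R-spondin, Noggin and EGF. "EV" is the control that received the lentiviral backbone alone and also stayed in full medium. All had been cultured for 5 months and grown for 3 more weeks in the stated medium. Each group has 1 library, no number of mice or cultures is given for it, and the selected Base organoids differ from the full-medium organoids in selection as well as medium. Differences below therefore come without replicates, and none is given a p-value. The captured DNA does not show whether the Braf allele was recombined, so the labels were not checked in that way.

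The libraries held an estimated 5985362 reads in Braf Base, 8648828 in Braf full and 5041726 in EV. The Braf full library stood apart. No read overlapped 83.0% of all bins in Braf Base, 43.3% in Braf full and 87.2% in EV. In 1-kb tiles of low signal, mean coverage per bin was 0.00603 in Braf Base, 0.0400 in Braf full and 0.00567 in EV over the whole table, and 0.00680, 0.0426 and 0.00581 in that order over the 5 Mb to each side of the locus. Here coverage is the authors' normalised value per bin with its floor taken off, so the average bin of the table, over all libraries, had 0.0597. Levels of different genes also follow how many CpG sites each window holds, which was not counted here, so levels are compared between libraries and not read as degrees of methylation.

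The locus as a whole had a similar coverage in the libraries, and its clusters differed in opposite directions. Mean coverage per bin was 0.333 in Braf Base, 0.330 in Braf full and 0.313 in EV. The ratio was 1.07 for Braf Base over EV (95% interval 1.04 to 1.09), 1.06 for Braf full over EV (1.03 to 1.08) and 1.01 for Braf Base over Braf full (0.986 to 1.03). These and all later intervals are exact Clopper-Pearson intervals computed from estimated reads. Counting is the only source of error in them, and each sets 1 library against 1 other rather than a condition against a condition. The locus lay 7.46-fold above the mean of its library in Braf Base, 3.97-fold in Braf full and 6.12-fold in EV. It took 0.276% of all overlaps in Braf Base, 0.147% in Braf full and 0.227% in EV. The lower share in Braf full goes with that library's higher background.

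The gamma cluster, at 37661775 to 37841873, was the most strongly covered. Its mean coverage was 0.700 in Braf Base, 0.615 in Braf full and 0.531 in EV, or 1.32-fold higher in Braf Base than in EV (1.27 to 1.37) and 1.16-fold higher in Braf full than in EV (1.11 to 1.21). The beta cluster, at 37264998 to 37521419, was the lowest, with 0.159 in Braf Base, 0.212 in Braf full and 0.203 in EV. Its ratio was 0.785 for Braf Base over EV (0.739 to 0.834), 1.04 for Braf full over EV (0.983 to 1.11) and 0.753 for Braf Base over Braf full (0.710 to 0.798). With background subtracted, the log2 ratio of beta changed sign for Braf full over EV, with 0.06 before and -0.20 after, and was -0.41 before and -0.16 after for Braf Base over Braf full. The alpha cluster, at 36930285 to 37188897, had 0.461 in Braf Base, 0.429 in Braf full and 0.459 in EV, and its Braf Base over EV ratio was 1.004 (0.967 to 1.04). As a share of all overlaps of its library, gamma took 0.115% in Braf Base, 0.0542% in Braf full and 0.0762% in EV, and beta 0.0372%, 0.0265% and 0.0414% in that order. On that scale, which sets library totals equal, both clusters were lower in Braf full than in EV, and beta was higher in Braf Base than in Braf full, while the directions of Braf Base against EV held.

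The contrast between clusters within a pair of libraries does not depend on how the libraries are scaled. On the log2 scale the Braf Base over EV ratio of gamma exceeded that of beta by 0.75, and by 0.76 after background was subtracted. For Braf full over EV the same contrast was 0.15, and 0.33 after subtraction. For Braf Base over Braf full it was 0.60 and 0.43. Gamma also exceeded alpha by 0.39 for Braf Base over EV, by 0.31 for Braf full over EV and by 0.08 for Braf Base over Braf full.

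**Figure D1:**
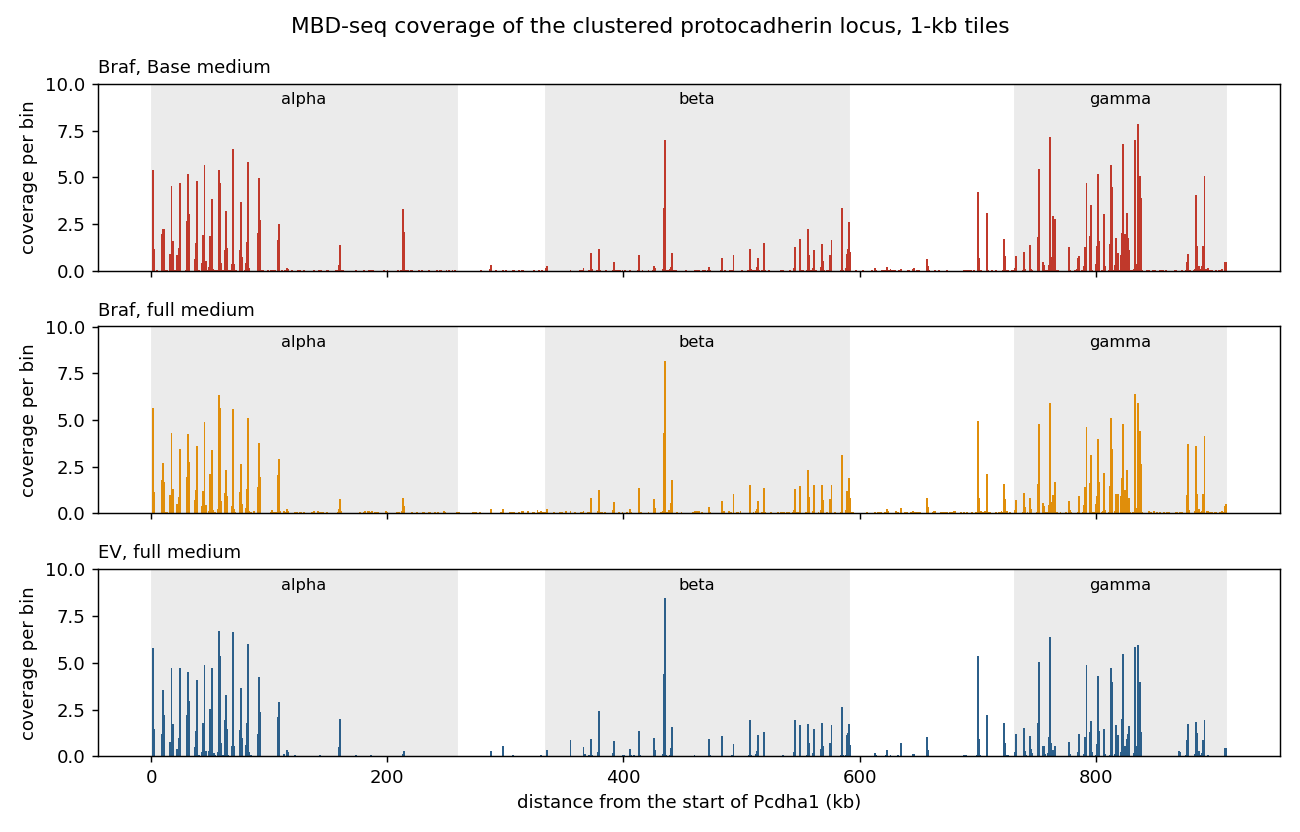
Mean coverage per bin in tiles of 1 kb along the clustered protocadherin locus, plotted against the distance from the start of Pcdha1 in kb, with 1 panel per library and the alpha, beta and gamma clusters shaded. Coverage falls in narrow peaks in every library, and the peak near 213 kb, at Pcdhac2, is tall in Braf Base and barely visible in EV.

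Signal was concentrated in stretches around the starts of the genes, as the map of the locus shows. Stretches from 1 kb before to 3.5 kb after the 58 starts made up 29.3% of the bins and held 82.7% of the overlaps in Braf Base, 72.7% in Braf full and 77.6% in EV. In the gamma cluster such stretches made up 55.7% of the bins. They held 97.4% of its overlaps in Braf Base, 94.8% in Braf full and 97.1% in EV. A stretch of this length can span a whole beta gene, such as Pcdhb1 at 37264998 to 37267454. The shared 3' part of the alpha cluster, which holds the constant exons, was near background, with 0.00670 in Braf Base, 0.0401 in Braf full and 0.00287 in EV. The shared 3' part of the gamma cluster had 0.153 in Braf Base, 0.156 in Braf full and 0.107 in EV. The DNA between alpha and beta was also low, at 0.0112 in Braf Base, 0.0493 in Braf full and 0.0154 in EV. The value of Braf full there is close to its low tiles elsewhere.

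Other genes lie inside the span. Slc25a2, a mitochondrial ornithine carrier, had a coverage of 1.42 in Braf Base, 0.984 in Braf full and 1.02 in EV at its high end. Taf7, a subunit of the general transcription factor TFIID that sits next to it, had 0.00337 in Braf Base, 0.0490 in Braf full and 0 in EV at its high end, and 0, 0.0624 and 0 in that order at its low end. Signal at Taf7 thus stayed near background in every library, between the densely covered protocadherin clusters. The 13 other entries of the gene table in the span also include Gm37013, Gm38666 and Gm38667, whose starts coincide with those of Pcdha4, Pcdha6 and Pcdha7 and whose signal cannot be told apart from theirs.

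Averaged around their starts, the families had different shapes. The 12 alternate alpha genes had a small peak just after the start and a tall one 1400 bp inside the gene, of 8.17 in Braf Base, 6.99 in Braf full and 7.90 in EV. The beta genes had almost no signal at the start itself, with 0.0236 in Braf Base, 0.0780 in Braf full and 0.0251 in EV, and a peak 1800 bp inside of 2.07 in Braf Base, 2.22 in Braf full and 2.43 in EV. Gamma B genes also peaked at 1800 bp, with 11.1 in Braf Base, 9.23 in Braf full and 9.51 in EV. Gamma A genes instead had their highest signal close to the start, at 400 bp in Braf Base (2.67) and Braf full (1.78) and at 600 bp in EV (1.43). In the C-type alpha pair the peak lay on the start, at 3.93 in Braf Base, 1.25 in Braf full and 1.63 in EV. The variable exons of these families are known to be about as long as the stretch that holds these peaks. The gene table gives no exons, so the place of the peaks within an exon was not measured.

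**Figure D2:**
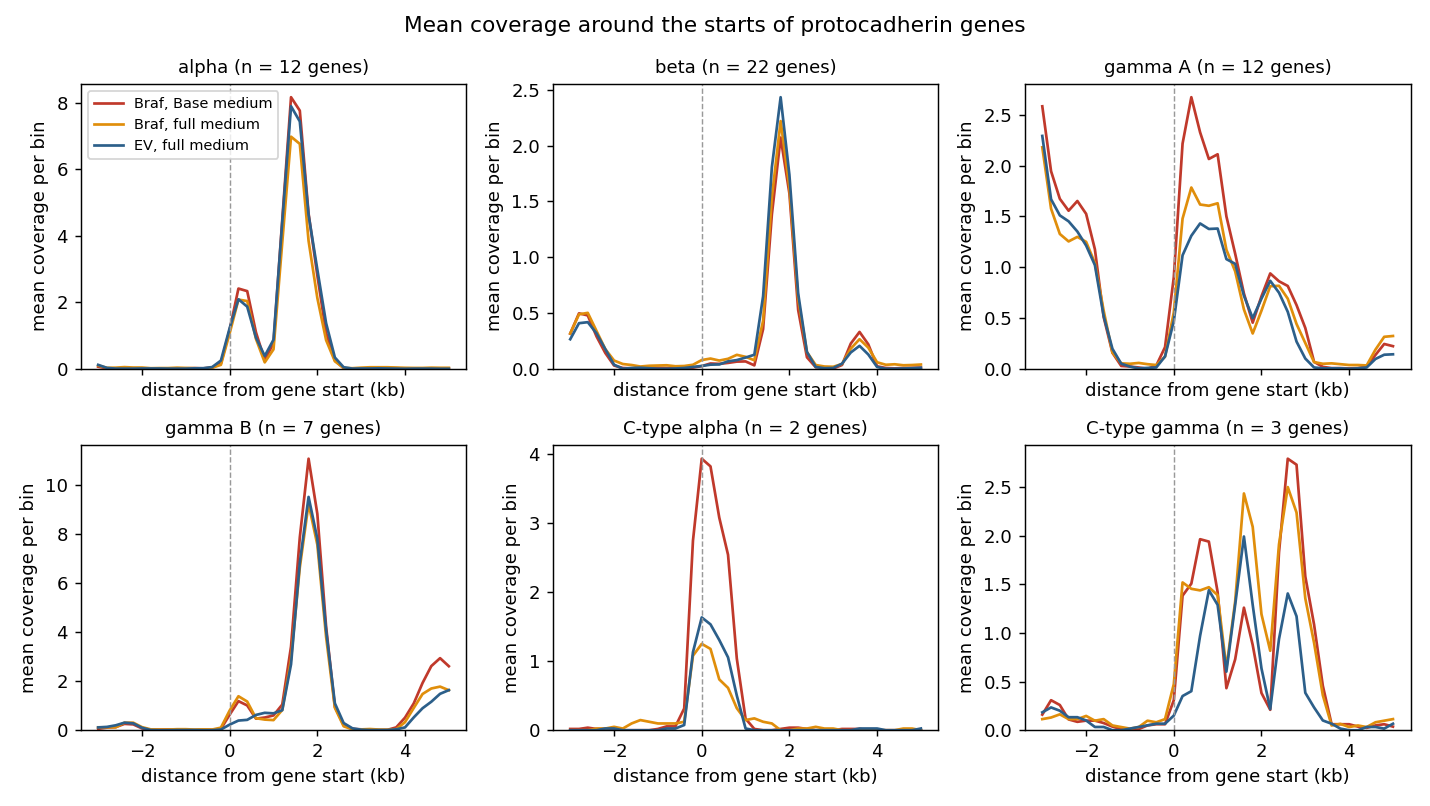
Mean coverage per bin against the distance from the gene start in kb for 6 families of protocadherin genes, with 1 line per library; vertical scales differ between panels. The inner peaks of the alpha and gamma B genes lie close together in the libraries, those of the beta genes are lowest in Braf Base, and the libraries differ more at the start of the gamma A, gamma B and C-type genes.

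The level of a gene was therefore measured in a start window, 1 kb to each side of the start, and over the first 2.4 kb of the gene. Start windows of the 12 alternate alpha genes had a median of 0.734 in Braf Base, 0.686 in Braf full and 0.700 in EV. Those of the 12 gamma A genes had 0.808 in Braf Base, 0.561 in Braf full and 0.648 in EV. Those of the 7 gamma B genes had 0.138 in Braf Base, 0.290 in Braf full and 0.100 in EV, and those of the beta genes 0.0118, 0.0468 and 0.0137 in the same order. Over all protein-coding gene ends of the table, 41330 in number, the median was 0.00674 in Braf Base, 0.0579 in Braf full and 0.00913 in EV. Beta starts were thus at the level of a typical gene end, and alpha and gamma A starts were far above it, in all libraries.

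Over the first 2.4 kb the order of families was another. The median was 3.14 in Braf Base, 2.69 in Braf full and 2.69 in EV for gamma B genes, and 2.74, 2.46 and 2.75 in that order for alternate alpha genes. It was 0.879 in Braf Base, 0.692 in Braf full and 0.614 in EV for gamma A genes, and 0.433, 0.541 and 0.560 for beta genes. Pcdhga12 stood out among gamma A genes, with 5.01 in Braf Base, 3.98 in Braf full and 3.84 in EV, the highest value of the 58 genes in every library. Ranks of the genes were compared over all clusters and within each. Spearman's rho over the 58 start windows was 0.87 for Braf Base and EV, 0.88 for Braf full and EV and 0.91 for Braf Base and Braf full. For Braf Base and EV it was 0.29 within the alpha cluster, 0.54 within beta and 0.72 within gamma, and for Braf Base and Braf full 0.70, 0.38 and 0.93 in that order. These correlations are across genes that share libraries and CpG content, and are given as a description.

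**Figure D3:**
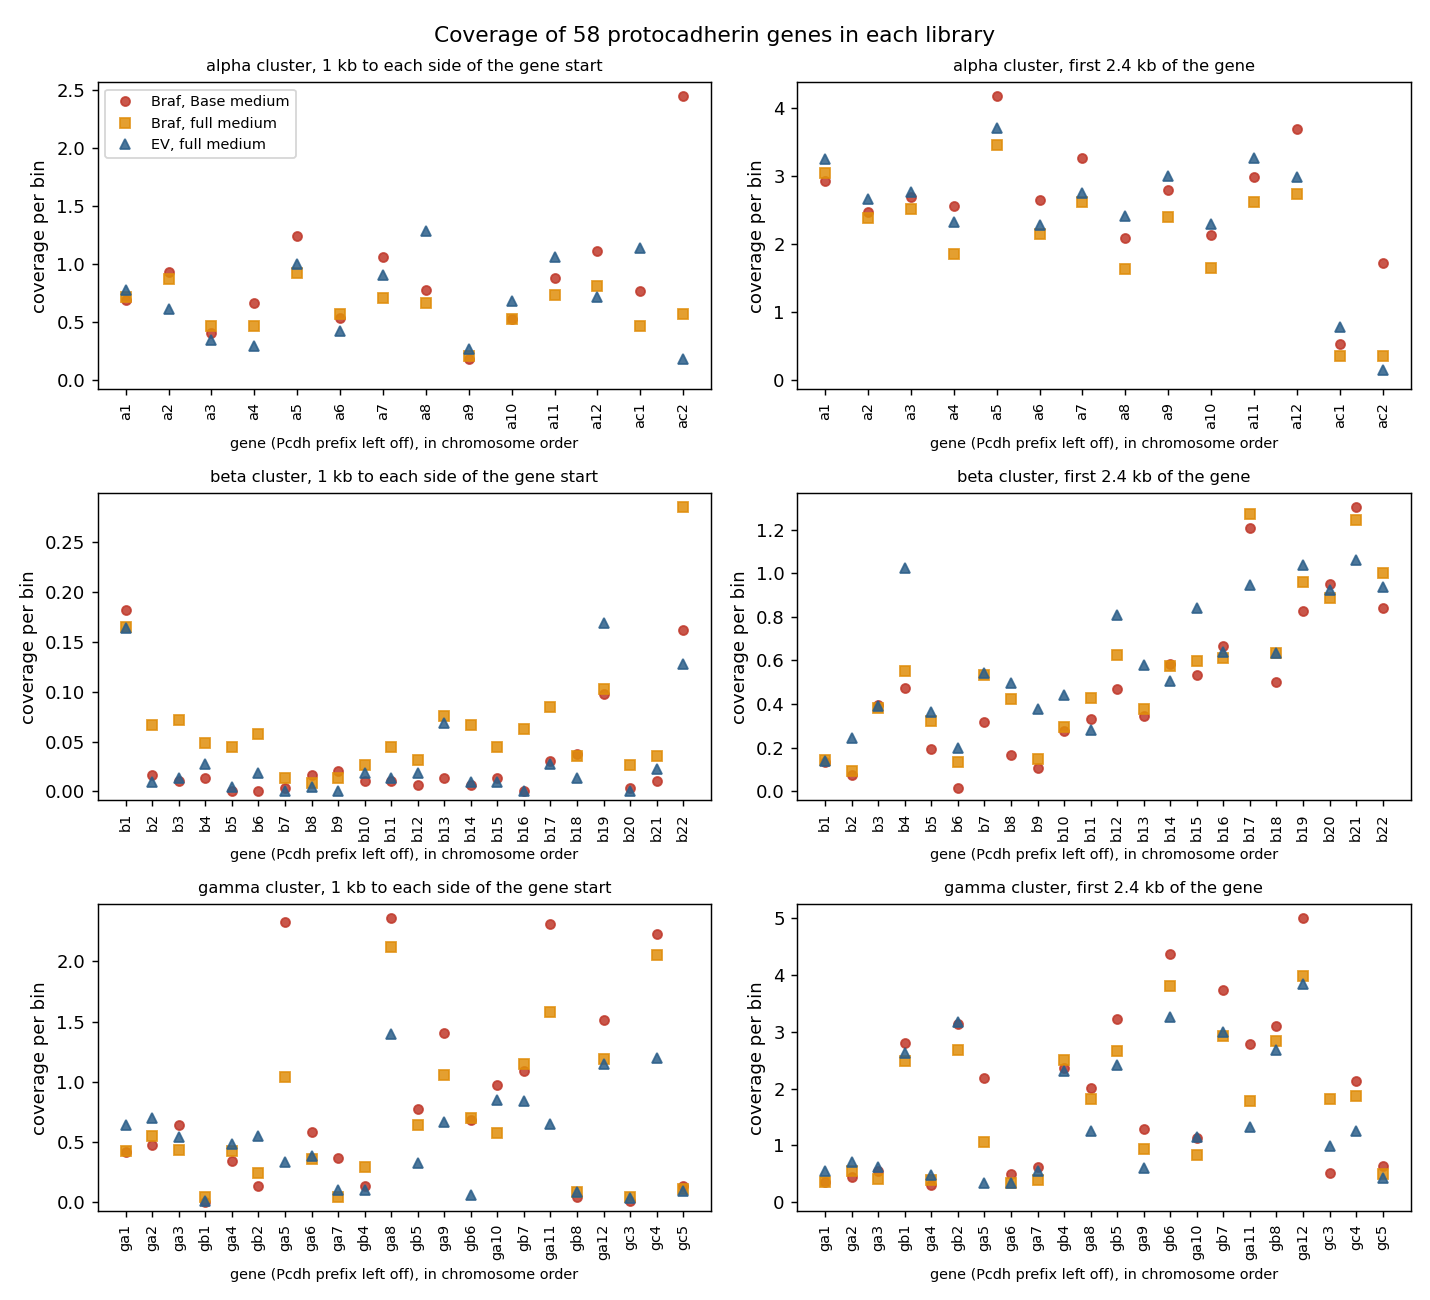
Mean coverage per bin of each of the 58 protocadherin genes in chromosome order, in the start window (left) and over the first 2.4 kb (right), with 1 symbol per library; vertical scales differ between panels. Pcdhac2, Pcdhga5 and Pcdhga11 are far higher in Braf Base than in EV at the start, and the early beta genes are lower in Braf Base over the first 2.4 kb.

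The extremes of each cluster were as follows. In the alpha cluster the highest start was Pcdhac2 in Braf Base (2.46), Pcdha5 in Braf full (0.922) and Pcdha8 in EV (1.29). The lowest was Pcdha9 in Braf Base (0.182) and Braf full (0.214), but Pcdhac2 in EV (0.183). Pcdhac2 was thus the highest of the 14 alpha starts in one library and the lowest in another. In the gamma cluster Pcdhga8 was the highest in all libraries, with 2.36 in Braf Base, 2.12 in Braf full and 1.40 in EV. The lowest gamma start was Pcdhgb1 in Braf Base (0.00337) and EV (0.00913), and Pcdhga7 in Braf full (0.0401). In the beta cluster the highest was Pcdhb1 in Braf Base (0.182), Pcdhb22 in Braf full (0.285) and Pcdhb19 in EV (0.169), and the lowest lay at 0 in Braf Base and EV.

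Start windows held between 0 and 294 estimated reads in Braf Base (median 32), between 1 and 196 in Braf full (median 26.5) and between 0 and 123 in EV (median 15.5). The estimate was 0 reads in 6 of the 58 windows in Braf Base, in 0 in Braf full and in 6 in EV, all of them beta genes except Pcdhgb1 in Braf Base. A count of 0 allows up to 3 reads, a coverage of 0.0251 in Braf Base, 0.0323 in Braf full and 0.0340 in EV, so lower signal is not detectable at this depth.

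The comparison of Braf Base with EV addresses what differs after activation of Braf together with growth without niche factors. Starts of 8 protocadherin genes had gained coverage and 1 had lost it. The log2 ratio was taken after adding a pseudocount of 0.0597 to both libraries. Calls of a gain required a ratio of 1 or more and calls of a loss a ratio of -1 or less, and in both cases a coverage of 0.119 in the higher library. Of the gained starts, 6 were in the gamma cluster, 2 in the alpha cluster and 0 in the beta cluster. The minimum was reached by 19 of 22 gamma starts, 14 of 14 alpha starts and 3 of 22 beta starts. Most beta starts could thus not be called. Over all gene ends 3.23% were gained and 1.4% lost, against 13.8% and 1.72% of the 58 starts. Among gene ends whose higher library reached the minimum, 21.8% were gained and 9.47% lost. Of the 36 protocadherin starts that reached it, 22.2% were gained and 2.78% lost, so the share of gains was near that of other covered gene ends. Gene ends here take in both ends of each gene, as no strand was given, and a share over starts alone was not computed. The median log2 ratio of the 58 starts was 0.10, against 0 over all gene ends.

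Pcdhac2 led the gains. This C-type alpha gene, which in mouse serotonergic neurons is needed for the tiling of axons, had a start coverage of 2.46 in Braf Base, 0.570 in Braf full and 0.183 in EV. The 3 libraries did not come near each other, and Braf Base was 13.5-fold above EV (8.20 to 24.0; log2 ratio 3.38), from 294 and 16 estimated reads. The tile at 37143001 to 37144000, which holds its start, had 3.30 in Braf Base, 0.833 in Braf full and 0.110 in EV, the highest log2 ratio (4.31) of all tiles in the locus.

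The largest gamma gains were at Pcdhga5, Pcdhgb6 and Pcdhga11. Pcdhga5 had 2.32 in Braf Base, 1.04 in Braf full and 0.333 in EV, which is 6.98-fold higher in Braf Base than in EV (4.81 to 10.7). Pcdhgb6 had 0.680 in Braf Base, 0.704 in Braf full and 0.0593 in EV, or 11.5-fold (4.91 to 37.7) on 5 estimated reads in EV. Pcdhga11 had 2.31 in Braf Base, 1.58 in Braf full and 0.653 in EV, a 3.54-fold difference (2.63 to 4.74). In Pcdhga5 and Pcdhga11 the Braf full library lay between the others, and in Pcdhgb6 it was level with Braf Base.

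The other gains were smaller. Pcdhga7 had 0.364 in Braf Base, 0.0401 in Braf full and 0.105 in EV (3.47-fold, 1.74 to 8.39). Pcdhgb5 had 0.778 in Braf Base, 0.641 in Braf full and 0.329 in EV (2.37-fold, 1.54 to 3.72). Pcdhga9 had 1.40 in Braf Base, 1.06 in Braf full and 0.666 in EV, and Pcdha4 had 0.667, 0.468 and 0.301 in that order. Both of these last genes had a log2 ratio of 1.01, just past the limit for a call. Pcdhga7, whose Braf full value was the lowest of the 3, was the only one of the 8 with Braf full below EV.

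Pcdhgb2, between Pcdhga4 and Pcdhga5, was the only start that was lost. It had 0.138 in Braf Base, 0.241 in Braf full and 0.548 in EV, a log2 ratio of -1.62, and its start at 37689859 is followed by that of Pcdhga5 at 37694375. Opposite differences were thus seen at neighbouring gamma starts. At the early end of the gamma cluster values short of the limit went in both directions. Pcdhga1 had 0.421 in Braf Base, 0.423 in Braf full and 0.643 in EV, Pcdhga2 had 0.475, 0.548 and 0.703 in that order, Pcdhga3 had 0.643, 0.437 and 0.543, and Pcdhga4 had 0.347, 0.428 and 0.484.

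Among the other C-type genes, Pcdhgc4, which keeps interneurons alive in the developing mouse, had 2.23 in Braf Base, 2.05 in Braf full and 1.20 in EV. It was 1.86-fold higher in Braf Base than in EV (1.48 to 2.36), a log2 ratio of 0.86 and below the limit for a call. That ratio passed the limit with library totals set equal, and was 1.65 in a window of 500 bp to each side. Pcdhac1 had 0.771 in Braf Base, 0.472 in Braf full and 1.15 in EV. Pcdhgc5 had 0.138 in Braf Base, 0.111 in Braf full and 0.0913 in EV. Pcdhgc3, reported as silenced by methylation in human colorectal tumours, had almost no signal in its start window, with 0.0101 in Braf Base, 0.0401 in Braf full and 0.0319 in EV. The 5 C-type genes therefore did not behave alike.

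**Figure D4:**
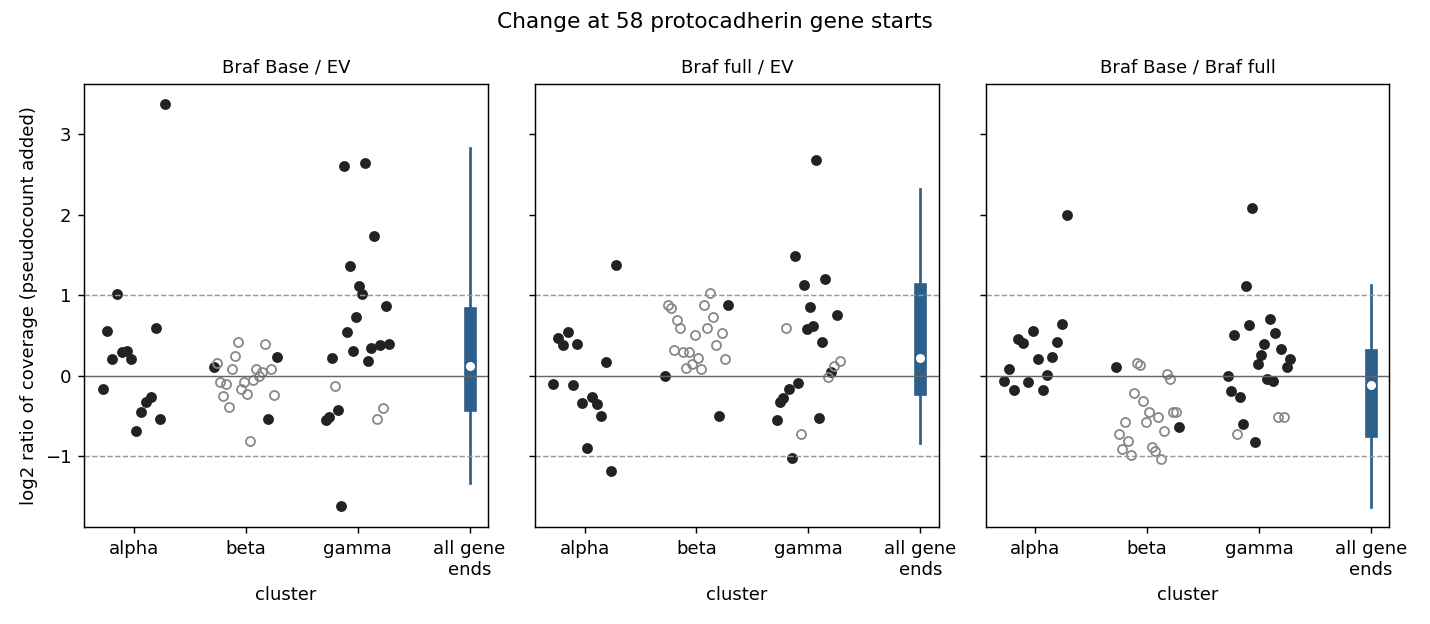
Log2 ratio of start-window coverage for each of the 58 genes by cluster, in 3 comparisons; filled points reach the minimum coverage in the higher library, open points do not, and dashed lines mark the limits for a call. The blue bar gives gene ends of the whole table that reach the minimum (line from the 5th to the 95th percentile, box for the quartiles, white dot for the median), and most protocadherin starts lie within its line.

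Over the first 2.4 kb, Braf Base and EV differed at genes of all clusters. Here 5 genes were lost, all of them among the early beta genes, and 4 were gained, namely Pcdhac2, Pcdhga5, Pcdhga9 and Pcdhga11. All 58 genes reached the minimum in this window, and 6.90% were gained and 8.62% lost. Over windows reaching 2.4 kb inward from all gene ends 3.4% were gained and 1.76% lost, and among those that reached the minimum 17.7% and 9.15%. The share of losses was thus near that of other covered windows, and the share of gains below it. Within the beta cluster 22.7% of the genes were lost. Pcdhb6 had 0.0171 in Braf Base, 0.136 in Braf full and 0.201 in EV (log2 ratio -1.76). Pcdhb9 had 0.105 in Braf Base, 0.147 in Braf full and 0.378 in EV (-1.41). Pcdhb8 had 0.168 in Braf Base, 0.422 in Braf full and 0.498 in EV (-1.29), Pcdhb2 had 0.0741, 0.0942 and 0.243 in that order (-1.18), and Pcdhb4 had 0.476, 0.550 and 1.02 (-1.02). Pcdhb3, between Pcdhb2 and Pcdhb4, did not share this, with 0.396 in Braf Base, 0.384 in Braf full and 0.390 in EV.

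Levels of the beta genes climbed along the cluster in every library. The median over the first 2.4 kb was 0.194 in Braf Base, 0.324 in Braf full and 0.378 in EV for Pcdhb1 to Pcdhb11, and 0.667, 0.633 and 0.842 in that order for Pcdhb12 to Pcdhb22. Spearman's rho between chromosome order and coverage over the 22 genes was 0.83 in Braf Base, 0.85 in Braf full and 0.74 in EV. From Pcdhb17 to Pcdhb22 the log2 ratio of Braf Base over EV went in both directions, between -0.31 at Pcdhb19 and 0.33 at Pcdhb17. CpG content may differ along the cluster and was not counted here. The median log2 ratio of Braf Base over EV was -0.44 over the 22 beta genes, 0.26 over the 22 gamma genes and -0.07 over the 14 alpha genes.

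Splitting each gene into a start part, from 200 bp before to 800 bp after the start, and an inner part, from 1000 to 2400 bp, set the differences between libraries apart. These bounds were chosen from the averaged profiles after the values were seen, so they are given as a description. Over the start parts of all 58 genes, mean coverage was 0.868 in Braf Base, 0.673 in Braf full and 0.569 in EV. Over the inner parts it was 1.92 in Braf Base, 1.73 in Braf full and 1.89 in EV. The log2 ratio of these means for Braf Base over EV was 0.61 for the start parts (0.52 to 0.70) and 0.02 for the inner parts (-0.02 to 0.06). Genes with high coverage weigh most in such a ratio. Single genes lay between -2.13 and 3.48 in their start parts and between -2.09 and 2.06 in their inner parts.

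In the gamma B family, single genes spread widely in the start parts and little in the inner parts. Their inner parts, the highest of the families by mean, had a mean of 4.84 in Braf Base, 4.12 in Braf full and 4.26 in EV, and single genes lay between 0.01 and 0.28 on the log2 scale for Braf Base over EV. Their start parts had a mean of 0.644 in Braf Base, 0.735 in Braf full and 0.401 in EV, and single genes lay between -2.13 (Pcdhgb2) and 3.33 (Pcdhgb6). Of these 7 start parts, 5 reached the minimum coverage in Braf Base, 6 in Braf full and 5 in EV. All 7 inner parts reached it in every library, so the 2 ranges rest on unlike coverage. In Pcdhgb6 the start part had 1.21 in Braf Base, 1.23 in Braf full and 0.0669 in EV, while the inner part had 6.21, 5.27 and 5.26 in that order. The alternate alpha genes had inner parts of 3.75 in Braf Base, 3.15 in Braf full and 3.75 in EV, with single genes between -0.35 and 0.23 for Braf Base over EV. Their start parts differed little as well, with 1.24 in Braf Base, 1.07 in Braf full and 1.13 in EV. The log2 ratio of Braf Base over EV there was 0.14 (-0.006 to 0.28). Gamma A genes differed at the start, with 1.73 in Braf Base, 1.19 in Braf full and 0.970 in EV (log2 ratio 0.84 for Braf Base over EV, 0.69 to 0.98), more than inside, with 1.06, 0.862 and 0.877 in that order (0.27, 0.13 to 0.41). For single gamma A genes the log2 ratio of Braf Base over EV in the inner part lay between -1.82 (Pcdhga3) and 2.06 (Pcdhga5). Pcdhga12 had the highest inner part of the 58 genes, with 7.18 in Braf Base, 5.63 in Braf full and 5.49 in EV. Beta genes were the reverse: the start parts were near background and the inner parts had 0.763 in Braf Base, 0.846 in Braf full and 0.960 in EV (-0.33, -0.44 to -0.22).

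**Figure D5:**
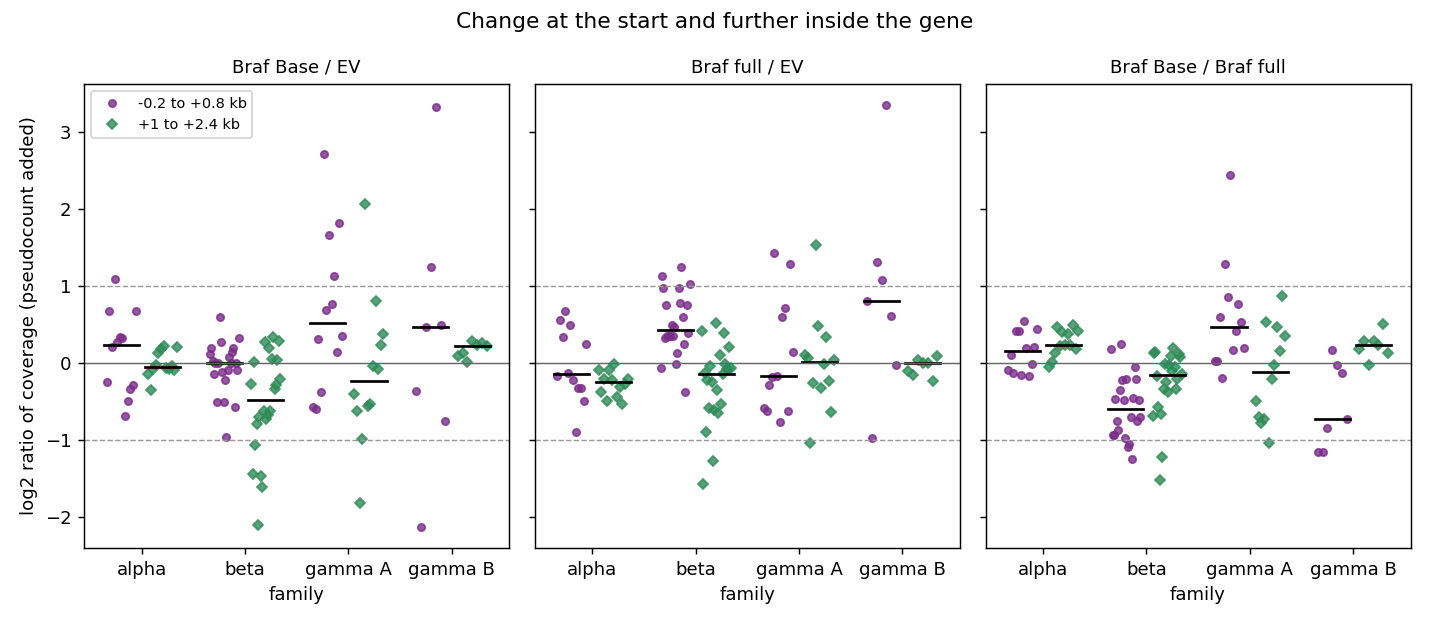
Log2 ratio of coverage in the start part (circles, 200 bp before to 800 bp after the start) and the inner part (diamonds, 1000 to 2400 bp inside) of each alternate alpha, beta, gamma A and gamma B gene, in 3 comparisons; black lines are medians and dashed lines mark a log2 ratio of 1 in either direction. Inner parts of alpha and gamma B genes lie close to 0, while start parts of gamma genes spread from -2.13 to 3.33 for Braf Base over EV.

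The comparison of Braf full with EV addresses activation of Braf in an unchanged medium. Here 5 starts were gained and 2 lost; with library totals set equal these counts became 1 and 6. Over all gene ends 4.64% were gained and 0.602% lost, against 8.62% and 3.45% of the 58 starts. Among gene ends at or over the minimum 26.5% were gained and 3.45% lost, and among the 34 protocadherin starts at or over it 14.7% were gained and 5.88% lost. The share of gains among covered starts was thus below that of covered gene ends in general, many of which have more signal in Braf full, the library with the high background.

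Gains were again led by gamma genes and Pcdhac2. Pcdhgb6 was 11.9-fold higher in Braf full than in EV (5.03 to 39.3), Pcdhga5 3.13-fold (2.08 to 4.99), Pcdhac2 3.12-fold (1.77 to 5.90) and Pcdhga11 2.42-fold (1.76 to 3.32). These 4 were gained in both Braf libraries against EV, comparisons that share the EV library. Of these 4, with library totals set equal, Pcdhgb6 alone stayed gained in Braf full (log2 ratio 2.05), and Pcdhga5, Pcdhac2 and Pcdhga11 fell short of the limit (0.83, 0.76 and 0.53). The fifth, Pcdhgb4, had 0.138 in Braf Base, 0.290 in Braf full and 0.100 in EV, on 9 estimated reads in EV. The losses were Pcdhac1, with 0.472 in Braf full and 1.15 in EV (log2 ratio -1.18), and Pcdhgb2, with 0.241 in Braf full and 0.548 in EV (-1.02). The C-type alpha neighbours Pcdhac1 and Pcdhac2 thus differed in opposite directions. Pcdhgc4 was 1.72-fold higher in Braf full than in EV (1.35 to 2.21), with a log2 ratio of 0.75, against 1.80 in a window of 500 bp to each side.

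Start windows of beta genes, of which 3 of 22 reached the minimum and 0 were called, were higher in Braf full than in EV in 21 of 22 genes. The median log2 ratio of these 22 windows was 0.44. Their median of 0.0468 in Braf full is close to the 0.0402 of that library's low tiles inside the locus, where Braf Base had 0.00776 and EV 0.00726. The log2 ratio of mean coverage over the beta starts was 0.93 for Braf full over EV, and 0.29 with each library's background subtracted. Over all gene ends the median log2 ratio for Braf full over EV was 0.66, above the 0.29 of the 58 starts. Over the first 2.4 kb, Pcdhac2 and Pcdhga5 were gained and Pcdhac1 and Pcdhb9 lost, which is 3.45% in each direction. Of windows reaching inward from all gene ends 4.41% were gained and 0.687% lost, and of those at or over the minimum 20.3% and 3.16%, so the share of losses was near the background. All 12 alternate alpha genes were slightly lower in Braf full than in EV over the first 2.4 kb, by log2 ratios of -0.55 to -0.06.

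The comparison of Braf Base with Braf full sets growth without niche factors against full medium with the same activated allele. Here 3 starts were gained and 0 lost; with library totals set equal, 18 were gained. Over all gene ends 1.02% were gained and 2.94% lost. Among gene ends at or over the minimum 5.83% were gained and 16.8% lost, and among 35 protocadherin starts at or over it 8.57% were gained. Pcdhga7 was 9.07-fold higher in Braf Base than in Braf full (3.11 to 32.7), on 4 estimated reads in Braf full. Pcdhac2 was 4.31-fold higher (3.20 to 5.88) and Pcdhga5 2.23-fold higher (1.76 to 2.83). These genes had the highest value of the 3 libraries in Braf Base, and the comparison shares its libraries with the 2 above. The median log2 ratio of the 58 starts was -0.05, against -0.61 over all gene ends.

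Over the first 2.4 kb Pcdhac2 and Pcdhga5 were gained and Pcdhb6, Pcdhb8 and Pcdhgc3 lost, or 3.51% and 5.26% of the 57 genes that reached the minimum. Of windows reaching inward from all gene ends 1.11% were gained and 2.66% lost, and of those at or over the minimum 5.15% and 12.4%, both above the shares of the protocadherin genes. Pcdhgc3 held the only run of at least 3 called tiles in the same direction in the locus. From 37807001 to 37810000, beginning 591 bp inside its start, coverage was 0.449 in Braf Base, 1.63 in Braf full and 0.853 in EV. Braf Base was thus 3.62-fold lower than Braf full (ratio 0.276, 0.208 to 0.361), although the start window of Pcdhgc3 had little signal in any library. Its neighbour Pcdhgc4 had nearly the same start coverage in Braf Base and Braf full (1.08-fold, 0.894 to 1.31). The size of both ratios rests on the authors' scaling. With library totals set equal, the log2 ratio of the Pcdhgc4 start was 0.98, against 0.11 as deposited. That scale raises Braf Base relative to Braf full, and the ratio of the Pcdhgc3 run is not given on it.

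Tiles of 1 kb were also called without regard to genes. For Braf Base over EV, 178 of the 910 tiles in the locus reached the minimum, and 9.55% of them were gained and 12.4% lost, against 5.14% and 20.3% of such tiles in the whole table. The gamma cluster had 13 gained and 8 lost of 67, the alpha cluster 3 and 3 of 54, and the beta cluster 0 and 9 of 40. The lost share in beta, 22.5%, was near that of the whole table. For Braf full over EV, 16.9% of 207 tiles were gained and 6.28% lost, against 36.1% and 4.54% in the whole table. The counts of gained and lost tiles were 14 and 6 of 72 in gamma, 9 and 2 of 63 in alpha, and 5 and 3 of 47 in beta. For Braf Base over Braf full, 2.55% of 196 were gained and 16.8% lost, against 1.49% and 42.5%. Here gamma had 3 gained and 7 lost of 65, alpha 2 and 10 of 61, and beta 0 and 9 of 45. The share of lost tiles for Braf Base over either library was thus lower in the locus than in the table as a whole. Some tiles reached the minimum in Braf full alone, the library with the high background. The tile at 37257001 to 37258000 had 0 in Braf Base, 0.176 in Braf full and 0 in EV. Such a tile counts as gained for Braf full over EV and as lost for Braf Base over Braf full. How many called tiles were of this kind was not counted, so these shares are not read as differences in methylation.

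Protocadherins outside the clusters, chosen as a list by family, were measured at both gene ends, and a gene counts if either end was called. Of all protein-coding genes 6.19% were gained and 2.61% lost on that count in Braf Base against EV, 8.55% and 1.13% in Braf full against EV, and 2.01% and 5.41% in Braf Base against Braf full. Of the 10 on the autosomes, 2 were gained and 1 lost in Braf Base against EV, 2 gained and 1 lost in Braf full against EV, and 3 gained and 1 lost in Braf Base against Braf full. Pcdh1, an adhesion protein of epithelia whose low end at 38185914 lies beyond the gamma cluster on the same chromosome, had 4.15 in Braf Base, 3.26 in Braf full and 0.625 in EV there. Pcdh10, reported as methylated in human tumours, had 0.158 in Braf Base, 0.0312 in Braf full and 0.00913 in EV at its low end. Pcdh7 had 0.00674 in Braf Base, 0.441 in Braf full and 0.132 in EV at its low end. Pcdh8, a synaptic protocadherin of the rat and mouse brain, had 1.56 in Braf Base, 0.579 in Braf full and 2.56 in EV at its high end. No common direction was seen over these genes.

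Genes that act on clustered protocadherins, such as Ctcf, the cohesin genes Rad21 and Smc3, Smchd1 and the DNA methyltransferases, were not called at either end in any comparison (0 of 14 measured). Only Nipbl, Dnmt1 and Setdb1 had an end that reached the minimum, so the others could not be called. Setdb1 had 0.643 in Braf Base, 0.655 in Braf full and 0.319 in EV at its high end. Its log2 ratios over EV, 0.89 and 0.91, fell short of the limit. Nipbl had 0.189 in Braf Base, 0.160 in Braf full and 0.319 in EV at its low end. Dnmt1, the maintenance methyltransferase, had 0.381 in Braf Base, 0.227 in Braf full and 0.406 in EV at its low end. Methylation at gene ends does not show expression, so neither this list nor cell type markers give the activity of a gene. Of 10 colon epithelium markers, 0 were called in Braf Base against EV and 1 in Braf full against EV, namely Cldn3, at a coverage of 0.125 in Braf full and 0.0228 in EV. For Braf Base against EV only Krt8 and Krt20 had an end that reached the minimum. Of 8 fibroblast and smooth muscle markers, 1 was gained and 1 lost in Braf Base against EV, and 2 were gained and 1 lost in Braf full against EV. Of 8 endothelial and neural markers, 4 were gained in Braf Base against EV and 3 in Braf full against EV, and of 6 immune markers 0 were called. The shares of all genes given above for the same count are the background of these lists, each of which is small. Sox10 had 0.573 in Braf Base, 0.272 in Braf full and 0.0228 in EV at its high end. Whether these lists and the protocadherin starts share a cause was not tested.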

How the data were processed

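Input was 100 to 200 ng of DNA in pieces of 200 to 400 bp, read as 50-bp single ends, per the labels' protocols. The submitters' processing notes list Bowtie2 and mm10 and give no version. How reads that match several of these similar genes were placed, and the scaling, are not given in the sources used here. Log2 values per 200-bp bin of chromosomes 1 to 19 were computed and deposited by the authors. Raising 2 to these values gave a floor of 0.0153 plus whole steps in 100% of bins (tolerance 0.001 of a step). Whole numbers were taken as read overlaps, and overlaps times the step (0.0370 in Braf Base, 0.0490 in Braf full, 0.0502 in EV) as coverage. Overlaps were divided by the bins per lone read (2.48, 2.42 and 2.49) to estimate reads. Scripts used Python 3.11.15, numpy 2.4.6, pandas 2.3.3 and scipy 1.17.1.

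Gene positions came from RefSeq's table of GRCm38.p6, the assembly of mm10, which gives no strand. Clustered protocadherins are known to run forward, so their low coordinate was taken as the start. For all other genes both ends were measured. Mean coverage per bin served as the pseudocount, and 2 times that mean as the minimum. The call rule was checked on simulated data. Named genes were the C-type genes, up to 10 gains and 10 losses per comparison, the highest and lowest start of each cluster and library, other genes inside the span, and up to 4 called members of other lists. Further genes, tiles and the split into start and inner parts were chosen after their values were seen. The members and lists were chosen with earlier results of these data known. Sex chromosomes were not analysed here.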

Additional observations from a re-analysis of the deposited data

How the results depend on the processing

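No paired analysis was possible because each group has 1 library. The counts of starts were recomputed under 6 other settings. The log2 ratio of mean coverage over the 58 starts was recomputed under the 4 of these that change coverage. It is called the mean ratio, or the mean, below. Starts with high coverage weigh most in it, so it is not the average of the ratios of single genes. As reported, 8 starts were gained and 1 lost for Braf Base over EV, with a mean ratio of 0.56 (log2, 0.48 to 0.64), 5 gained and 2 lost for Braf full over EV (0.22, 0.14 to 0.31), and 3 gained and 0 lost for Braf Base over Braf full (0.33, 0.26 to 0.41). Scaling to equal total overlaps shifted log2 coverage by 0.19 in Braf Base and -0.70 in Braf full relative to EV. It gave a mean ratio of 0.75 for Braf Base over EV. For Braf full over EV it gave 1 gained, 6 lost and a reversed mean of -0.48 (gamma starts -0.27), and for Braf Base over Braf full 18 gained and a mean of 1.23. The direction of Braf full over EV across the starts thus rests on the authors' scaling. Over all gene ends, equal totals gave 1.71% gained and 2.09% lost for Braf full over EV, and 4.81% and 0.426% for Braf Base over Braf full. With background subtracted, the mean for Braf Base over Braf full was 0.45.

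A pseudocount 4 times as large left 4 gained and 1 lost for Braf Base over EV, and 3 gained and 0 lost for Braf full over EV. Over all gene ends it left 1.99% gained and 0.319% lost for Braf Base over EV, and 1.51% and 0.162% for Braf full over EV. By its construction it shrinks ratios of low windows. Windows of 500 bp to each side gave means of 0.70 for Braf Base over EV and 0.35 for Braf full over EV, 9 gained and 1 lost for Braf full over EV, and 1 lost for Braf Base over Braf full. The shares over all gene ends were not computed for windows of 500 bp, so these counts have no background. The first 2.4 kb, which take in the inner peaks, gave 4 gained, 5 lost and a mean of 0.15 for Braf Base over EV. They gave 2 gained and a reversed mean of -0.053 for Braf full over EV (beta genes -0.13), and 3 lost and a mean of 0.20 for Braf Base over Braf full. All 8 gained starts of Braf Base over EV were called again with equal totals, with background subtracted, with a minimum of 5 times the mean and with windows of 500 bp. Few reads in EV (16 at Pcdhac2, 5 at Pcdhgb6) limit how well the size of their ratios is known.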

Other observations

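The strongest tile of the locus in Braf full and EV belonged to no protocadherin start. It lies at 37365001 to 37366000, 9730 bp after the start of Pcdhb8 and before that of Pcdhb9, and had a coverage of 7.01 in Braf Base, 8.17 in Braf full and 8.48 in EV. In Braf Base the tile at 37766001 to 37767000 in Pcdhga12 was higher, with 7.88, against 5.91 in Braf full and 5.97 in EV. Some tiles away from gene starts were far higher in EV than in the Braf libraries. The tile at 37285001 to 37286000, 20003 bp after the start of Pcdhb1, had 0.0370 in Braf Base, 0.137 in Braf full and 0.873 in EV, the lowest log2 ratio of the locus for Braf Base over EV (-3.27). A tile between the beta and gamma clusters, at 37565001 to 37566000, had 0.0815 in Braf Base, 0.284 in Braf full and 0.733 in EV. All these tiles were chosen after their values were seen.

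The Hox clusters, which are other clustered gene families, gave a mix of directions as well. The HoxA span had a mean coverage of 0.551 in Braf Base, 0.448 in Braf full and 0.388 in EV, and the HoxC span 0.0732, 0.110 and 0.0300 in that order. The HoxB span had 0.154 in Braf Base, 0.215 in Braf full and 0.202 in EV, and the HoxD span 0.331, 0.259 and 0.307. The Braf Base over EV ratio was thus 1.42 for HoxA (1.34 to 1.51), 0.761 for HoxB (0.707 to 0.820), 2.44 for HoxC (2.01 to 2.96) and 1.08 for HoxD (0.9996 to 1.16), a range that takes in the 1.32 of the gamma and the 0.785 of the beta protocadherin cluster.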
